A study of Drosophila melanogaster with 2 samples.

Results

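The genes described here are 8 members of the c-Jun N-terminal kinase (JNK) pathway and its targets, *egr*, *hep*, *bsk*, *Jra*, *kay*, *puc*, *Ets21C* and *Mmp1*, chosen by symbol from the 13942 genes counted in ovaries of *Drosophila melanogaster*. Both groups were females of the genotype w1118(x);;, a white-eyed laboratory strain, at 1 week and at 6 weeks after eclosion, kept in vials with males. Whole ovaries were dissociated, with no enrichment of their anterior end, and RNA was captured from droplets with the 10x Genomics 3′ kit, version 4 in the labels, with another version also named in the study's methods. There was 1 library per age, so the age of the flies and the library cannot be told apart and no difference below has a replicate check. All 8 genes were present in both libraries.

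Eiger, the product of *egr*, is the fly tumor necrosis factor, a ligand that can start a chain of kinases at the cell membrane. The last of these kinases, Basket, is the fly JNK, and it activates the AP-1 transcription factor made of Jun and Fos, which turns on genes for stress response, wound closure, cell shedding and matrix remodeling. In the ovary the pathway is known from border cell migration and from the shape changes of follicle cells late in egg development, and in the gut it is known from stress and regeneration.

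A unique molecular identifier (UMI) marks each captured RNA molecule, and every level below is the number of UMIs of a gene per 1000000 UMIs of the same cells (CPM). Intervals are exact 95% intervals that cover counting error alone, Poisson for a level and binomial for a ratio or a share of cells. A barcode counted as a cell if it held 500 genes or more, 1000 UMIs or more and no more than 20% mitochondrial UMIs, which left 9131 of 33317 barcodes at 1 week and 9878 of 20224 at 6 weeks, with medians of 10639 and 12585.5 UMIs per cell. The libraries shared 178 barcodes. The 1-week cells formed 29 clusters without use of the 8 genes, and each 6-week cell was given the cluster of its nearest 1-week cells. Clusters carrying markers of a class were named after it with the ending "-like". Early-Mid FCs-like cells, follicle cells (FCs) of young and mid-stage egg chambers, were the largest class, with 5142 cells at 1 week and 5498 at 6 weeks. FSCs + pFCs-like cells, which carry markers of follicle stem cells and prefollicle cells, numbered 1415 and 1717. Muscle-like cells numbered 352 and 495, Escort-like cells 183 and 151, Gut or tubule-like cells 171 and 112, Late FCs-like cells 126 and 82, Germ cells-like cells 108 and 87, and Immune-like cells 54 and 18. The other 1580 and 1718 cells lay in clusters left unnamed, which are called by number and leading genes. The Gut or tubule-like class was cluster 17 alone, with *Uro* among its leading genes. Clusters 11, 25 and 29 also carried gut markers but were left unnamed, so values of the class do not cover them.

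The genes were placed by FlyBase identifier on the BDGP6.54 assembly, and 13879 of the 13942 identifiers were in its annotation, Ensembl release 115. Each of the 8 is protein-coding. *egr* (FBgn0033483) lies on chromosome arm 2R from 10078366 to 10084210 on the plus strand, and *Jra* (FBgn0001291) lies near it on the same arm and strand, from 10096480 to 10098556. *Mmp1* (FBgn0035049) is on the minus strand of 2R from 24671294 to 24688184. On 2L, *Ets21C* (FBgn0005660) spans 544925 to 552923 and *bsk* (FBgn0000229) spans 10247502 to 10250501, both on the minus strand. On the plus strand of 3R, *puc* (FBgn0243512) spans 8105332 to 8122294 and *kay* (FBgn0001297) spans 29765995 to 29794113. *hep* (FBgn0010303) is on the minus strand of X from 13079205 to 13090434. None of the 8 overlaps another counted gene on its own strand, and 4 overlap one on the opposite strand. Those partners are *nAChRbeta3* for *Ets21C*, *Pof* for *Mmp1*, *RpLP0-like* for *Jra* and *fig* for *kay*. The sources used here do not state whether counting used the strand, so reads of these 4 genes and their partners could not be told apart with certainty. The largest partner was that of *Jra*, as *RpLP0-like* held 14079 UMIs at 1 week and 17048 at 6 weeks, more than the 8988 and 14186 of *Jra* itself. Reads assigned without regard to strand could therefore weigh most in the *Jra* values. The partner of *Ets21C* held 526 and 788 UMIs against 2227 and 6407, that of *Mmp1* 1090 and 1370 against 5231 and 8884, and that of *kay* 51 and 33 against 42028 and 66977.

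The libraries were first compared over all kept cells. *Ets21C*, which encodes an ETS transcription factor induced by JNK, stood at 18.8 CPM (17.99 to 19.6) at 1 week and at 43.4 CPM (42.3 to 44.4) at 6 weeks, a log2 ratio of 1.21 (1.14 to 1.28). Its ratio was at percentile 98.6 of all genes tested. *Mmp1*, a secreted matrix metalloproteinase, was at 44.1 and 60.1 CPM, a log2 ratio of 0.45 (0.40 to 0.50). The AP-1 genes and the feedback phosphatase lay close together, with log2 ratios of 0.40 (0.38 to 0.42) for *puc*, 0.36 (0.34 to 0.37) for *kay* and 0.34 (0.30 to 0.38) for *Jra*. For the kinases the ratios were 0.11 (0.05 to 0.17) for *bsk* and 0.02 (-0.01 to 0.06) for *hep*, and for the ligand *egr* it was 0.00 (-0.07 to 0.07). The targets and the AP-1 genes were thus higher in the 6-week library by more than the counting error, while the ligand and *hep* had intervals that held 0.

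A log2 ratio of at least 0.5 either way, the size of change used by the study, was reached by 1 of the 8 genes upward, *Ets21C*, beside 6.52% of the 10056 genes with at least 30 UMIs, and by 0 of 8 downward, beside 11.5%. The count over all cells changed with the clusters included. Cluster 11, led by *Sox21a*, *CG43187* and *Sox100B* and carrying midgut markers, held 38.8% of all *Ets21C* UMIs at 1 week and 19.0% at 6 weeks, and its cells numbered 307 and 139. With the 4 clusters that carried at least 3 gut or tubule markers left out, 4 of the 8 genes passed 0.5, with log2 ratios of 1.86 for *Ets21C*, 0.93 for *Mmp1*, 0.62 for *Jra* and 0.51 for *puc*. With all clusters kept and each weighted by its share of the 1-week UMIs at both ages, 2 passed, *Ets21C* at 1.47 and *Mmp1* at 0.72, while *Jra* was at 0.48 and *puc* at 0.37. Both alternatives were chosen after seeing the data. The share of all genes past 0.5 under them is not given here, so their counts have no background beside them.

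**Figure D1:**
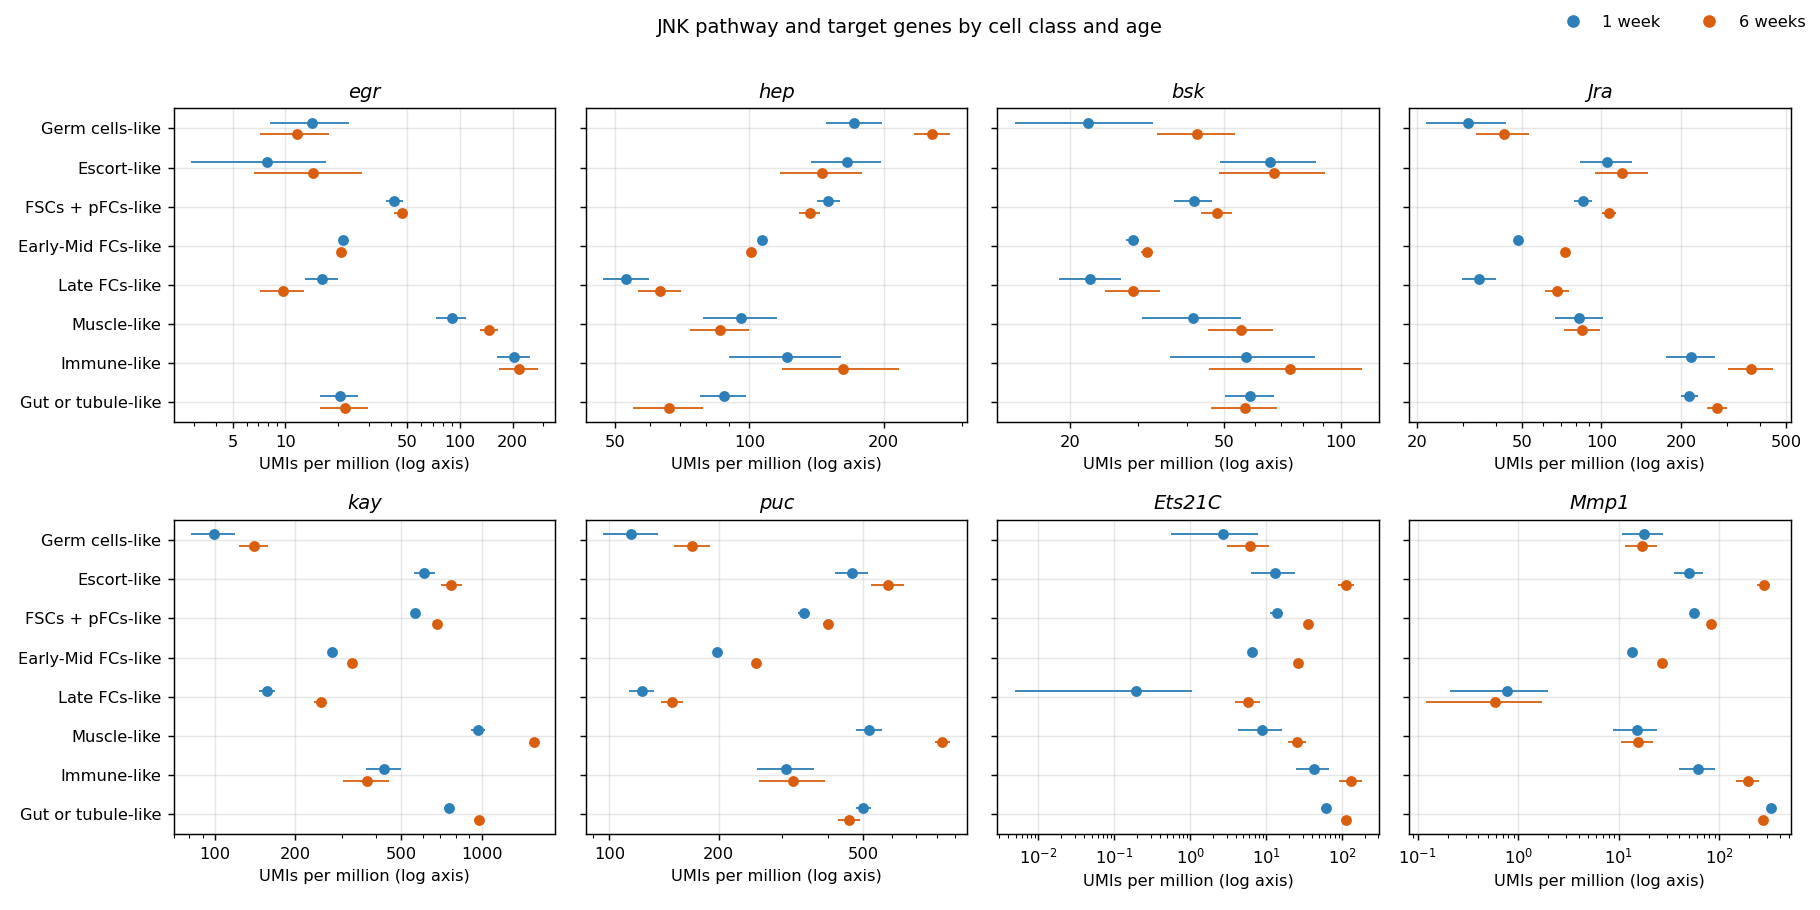
Level of each of the 8 genes in 8 cell classes, in CPM on a log axis, at 1 week (blue) and 6 weeks (orange). Points are sums over all cells of the class in 1 library, and bars are 95% Poisson intervals. The orange points of *Ets21C* lie to the right of the blue ones in every class, and those of *egr* lie to the right by more than the bars in the Muscle-like cells alone.

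Among the named classes *egr*, the gene of the ligand, was highest in Immune-like cells, which carry hemocyte markers, at 203.3 CPM (162 to 252) at 1 week and 218 CPM (167 to 280.0) at 6 weeks. Muscle-like cells came next with 89.5 CPM (72.9 to 109) and 147.1 CPM (131 to 165), and FSCs + pFCs-like cells followed with 42.0 and 46.2 CPM. Early-Mid FCs-like cells were at 21.3 and 20.7 CPM. Immune-like and Muscle-like cells were thus the main holders of *egr* per UMI, while the abundant Early-Mid FCs-like cells supplied 64.9% and 65.4% of its UMIs.

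Between the ages *egr* went opposite ways in different classes. Muscle-like cells held 101 UMIs at 1 week and 292 at 6 weeks, a log2 ratio of 0.72 (0.38 to 1.06). In Late FCs-like cells, which make yolk and vitelline membrane proteins, 85 UMIs at 1 week stood against 49 at 6 weeks, a log2 ratio of -0.76 (-1.29 to -0.23). The other classes with at least 30 UMIs had intervals that held 0, and over 20 clusters with at least 30 UMIs *egr* was higher at 6 weeks in 8. Markers of the classes moved as well. The summed level of the Muscle markers in the Muscle-like cells was 15921 CPM at 1 week and 20652 CPM at 6 weeks, and that of the Late FCs markers in the Late FCs-like cells was 79822 and 58810 CPM. The part of these markers in the *egr* values was not tested.

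Of the kinases, *hep* encodes the JNK kinase directly above Basket. Of the named classes it was highest in Germ cells-like cells, at 172 CPM (148.5 to 198) at 1 week and 257 CPM (234 to 281) at 6 weeks, and lowest in Late FCs-like cells, at 53.1 and 63.1 CPM. At 1 week Escort-like cells, at 165 CPM (138 to 197), were not told apart from them, and 6 of the 7 pairs of neighboring classes overlapped. At 6 weeks a single cell held 147 of the 464 *hep* UMIs of the Germ cells-like class. Unnamed cluster 8, led by *CG12655* and *Lsd-1*, held 239 and 260.1 CPM of *hep*. *bsk*, JNK itself, ranged from 22.3 CPM in Germ cells-like cells to 65.6 CPM in Escort-like cells at 1 week, and 5 of the 7 pairs of neighboring classes in that order had overlapping intervals. Both kinases were therefore found in every class, and for both most neighboring classes overlapped at 1 week.

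In Early-Mid FCs-like cells the kinases differed little between the libraries. *hep* was at 107 CPM (105 to 109) and 100.7 CPM (98.9 to 103), a log2 ratio of -0.09 (-0.13 to -0.05). *bsk* was at 29.0 CPM (27.9 to 30.2) and 31.6 CPM (30.6 to 32.7), a log2 ratio of 0.12 (0.05 to 0.20). *hep* was higher at 6 weeks in 10 of 29 clusters and *bsk* in 21 of 26. The log2 ratio of *hep* was past 0.5 upward in 3 clusters and downward in 2, and in Gut or tubule-like cells it was -0.41 (-0.72 to -0.10). In the Germ cells-like class the log2 ratios of the UMI sums were 0.94 (0.27 to 1.65) for *bsk* and 0.58 (0.33 to 0.83) for *hep*. The *hep* value there rested on few cells, since a single cell held 147 of its 464 UMIs at 6 weeks and the 10 cells with the most held 79.96%. With each cell thinned to 2000 UMIs the direction of *hep* turned, with a UMI in 25 of 93 cells (26.9%) at 1 week and in 15 of 69 (21.7%) at 6 weeks. *bsk* had 25 and 77 UMIs in this class, and the summed level of the 7 germ cell markers was 5248 CPM at 1 week and 1650 CPM at 6 weeks. How far this shift in markers bears on the kinase ratios was not tested.

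*Jra* and *kay* encode Jun and Fos, the pair that forms AP-1. Of the named classes *Jra* was highest in Immune-like cells, with 218 CPM (175 to 269) at 1 week and 370 CPM (302 to 448) at 6 weeks, followed by Gut or tubule-like cells with 215 and 275 CPM. Unnamed cluster 25, led by *CG31265* and *alphaTry*, was above both classes at 1 week, at 304 CPM. In Early-Mid FCs-like cells it was at 48.2 CPM (46.8 to 49.7) and 72.7 CPM (71.1 to 74.3), a log2 ratio of 0.59 (0.54 to 0.65). Late FCs-like cells held 34.5 CPM (29.6 to 39.9) and 67.9 CPM (60.9 to 75.4), a log2 ratio of 0.98 (0.71 to 1.25). *Jra* was thus higher at 6 weeks in both of these follicle classes by more than the counting error. In FSCs + pFCs-like cells the ratio was 0.33 (0.18 to 0.47), and in Muscle-like cells it was 0.04 (-0.34 to 0.42).

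*kay* followed another order of classes. Of the named classes it was highest in Muscle-like cells, at 971 CPM (914 to 1030) at 1 week and 1572 CPM (1518 to 1629) at 6 weeks, a log2 ratio of 0.70 (0.60 to 0.80). Gut or tubule-like cells held 753 and 977 CPM, Escort-like cells 609.9 and 770.0 CPM, and FSCs + pFCs-like cells 563 and 680.1 CPM. Early-Mid FCs-like cells were at 274 CPM (271 to 278) and 326 CPM (322 to 329), a log2 ratio of 0.25 (0.22 to 0.27), and Germ cells-like cells were lowest, at 98.8 and 140 CPM. The order of the 8 classes was the same at both ages, with 1 pair of neighbors overlapping at each age. *kay* was higher at 6 weeks in 27 of 29 clusters, with a median log2 ratio of 0.38. Its highest level of any cluster was in cluster 21, an unnamed cluster led by *Hr4* and *CG10936* with 110 cells at 1 week and 46 at 6 weeks, at 2435 and 4921 CPM. *puc* was also highest there, at 1778 and 2627 CPM. Cells of that cluster were shallow, with medians of 2194.5 and 2015.0 UMIs.

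*puc* encodes the phosphatase Puckered, which AP-1 induces and which switches Basket off again, so that its transcript is widely used as a readout of JNK activity. Of the named classes Muscle-like cells held the most in both libraries, 520 CPM (478 to 563) at 1 week and 828 CPM (788 to 869) at 6 weeks, a log2 ratio of 0.67 (0.53 to 0.81). In Early-Mid FCs-like cells *puc* was at 198 CPM (195 to 201) and 254 CPM (251 to 257), a log2 ratio of 0.36 (0.33 to 0.39). In FSCs + pFCs-like cells the ratio was 0.21 (0.14 to 0.29) and in Gut or tubule-like cells -0.13 (-0.25 to -0.01). Over the clusters, *puc* was higher at 6 weeks in 28 of 29, and the ratio passed 0.5 in 8 of them.

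The highest ratio of *puc* came from cluster 20, an unnamed cluster of 118 cells at 1 week and 394 at 6 weeks. It was led by *Nha1*, *CG42822* and *Ilp8* and carried *Oamb*, *Nox* and *Mmp2*, genes of mature follicle cells around ovulation. *puc* there was at 897 and 2070.0 CPM, a log2 ratio of 1.21 (1.10 to 1.31), and *kay* was at 1044 and 2052 CPM, a log2 ratio of 0.97 (0.88 to 1.07). *Jra* stood at 138 and 277 CPM, *Ets21C* at 57.2 and 178 CPM, *Mmp1* at 52.8 and 111 CPM and *hep* at 188 and 278 CPM, so 6 members were higher there in the 6-week library by more than the counting error. The cluster held 2.52% of all *puc* UMIs at 1 week and 12.1% at 6 weeks. Outside it the log2 ratios over all cells were 0.27 (0.25 to 0.29) for *puc*, 0.27 (0.25 to 0.28) for *kay*, 0.29 (0.25 to 0.33) for *Jra* and 1.13 (1.06 to 1.205) for *Ets21C*.

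*kay* and *puc* also differed between kept cells and barcodes left out. Among barcodes deep enough but over 20% mitochondrial, and so left out, *kay* made up 1116 of each 1000000 non-mitochondrial UMIs at 1 week and 1571 at 6 weeks, against 376 and 475 in kept cells. For *puc* these values were 638 and 847 in the left-out barcodes, against 290.1 and 378 in kept cells. *Jra* was lower in the left-out barcodes, at 44.3 and 43.1 against 80.4 and 100.6. The left-out barcodes therefore held more *kay* and *puc* and less *Jra* per UMI at both ages. *Ets21C* was at 16.6 in them at 1 week and at 74.4 at 6 weeks, against 19.9 and 45.4 in kept cells. Barcodes with too few genes or UMIs also held more *kay* than kept cells, with 1030.1 at 1 week and 1531 at 6 weeks.

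**Figure D2:**
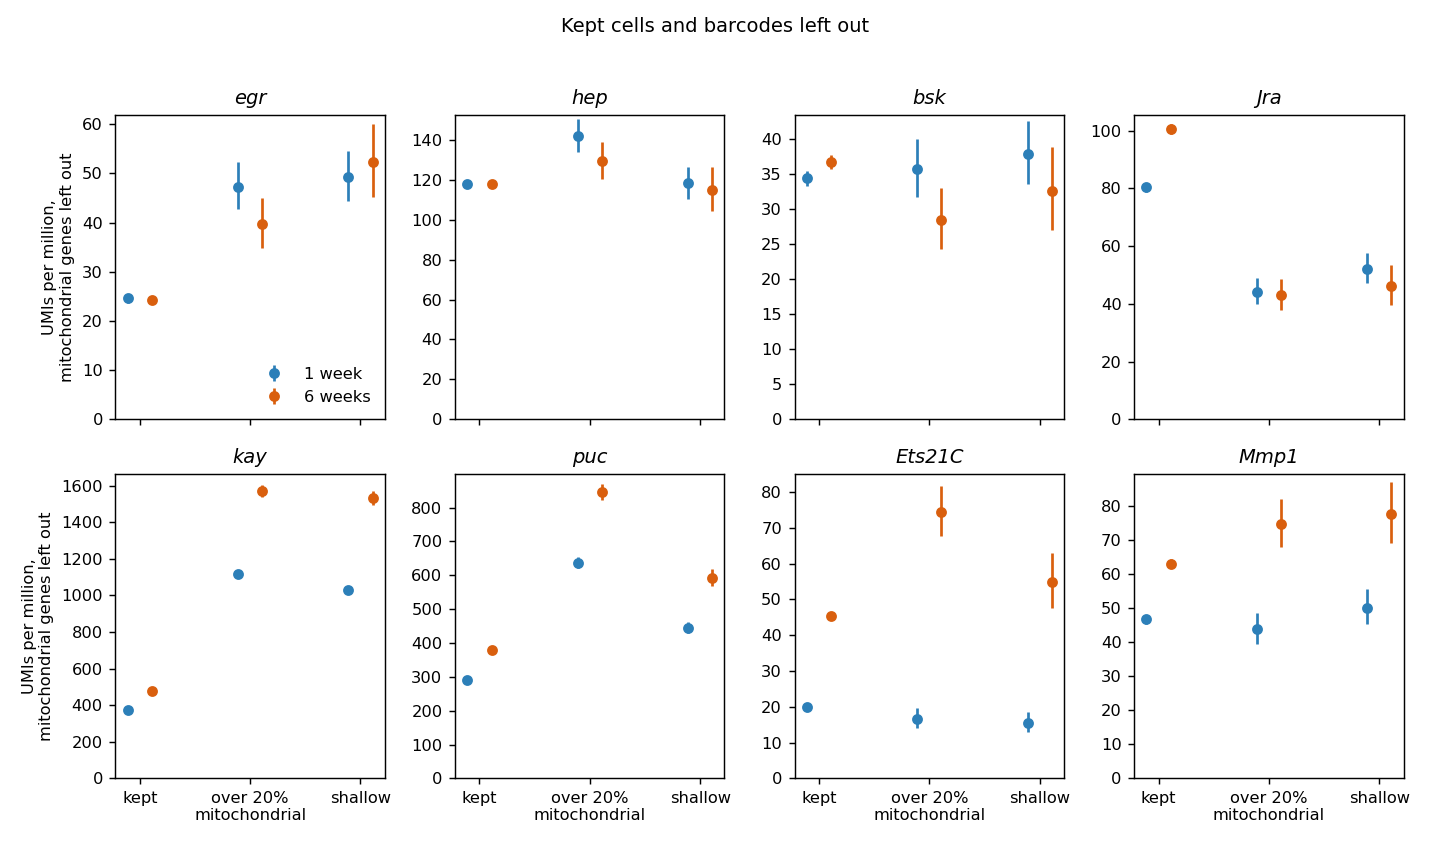
Level of the 8 genes in kept cells, in barcodes over 20% mitochondrial, and in barcodes with too few genes or UMIs (shallow), in CPM with mitochondrial genes left out, on linear axes from 0. Points are sums over 1 library (blue, 1 week, and orange, 6 weeks) and bars are 95% Poisson intervals. *kay* was at 376 in kept cells and 1116 in the barcodes over 20% mitochondrial at 1 week, while *Ets21C* differed between the ages in all 3 sets.

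Within the Early-Mid FCs-like class the ratios of *kay* and *puc* differed with the mitochondrial share of the cells. Among cells under 4% mitochondrial, of which there were 948 at 1 week and 3170 at 6 weeks, the log2 ratio was 0.15 (0.11 to 0.19) for *kay* and 0.19 (0.14 to 0.23) for *puc*. Among cells of 8% and over, 866 and 786 in number, it was 0.63 (0.56 to 0.71) for *kay* and 0.54 (0.44 to 0.63) for *puc*. The ranges also differed in their clusters. Cluster 10 of this class, led by *Ekar* and *nAChRalpha6*, had median mitochondrial shares of 15.3% and 14.1%. It held 320 cells and 1337 *kay* UMIs at 1 week, and 404 cells and 2263 *kay* UMIs at 6 weeks. The highest log2 ratio of *kay* in any Early-Mid FCs-like cluster was 0.50. The parts of the mitochondrial share and of the clusters in the *kay* and *puc* values were not tested. *Ets21C* had log2 ratios of 2.21, 1.94 and 2.01 in the cells under 4%, of 4% to 8%, and of 8% and over. *Mmp1* gave 1.18, 1.11 and 1.15 in the same cells, so the ratios of both targets were of like size in all 3 ranges.

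**Figure D3:**
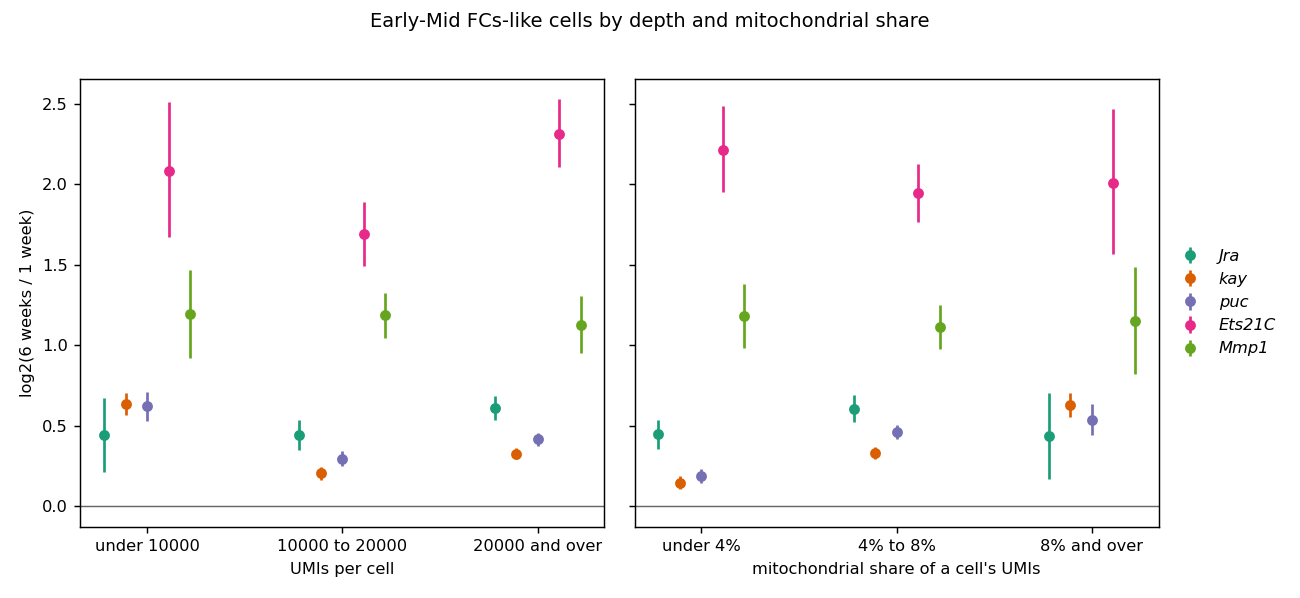
Log2 ratio of the 6-week to the 1-week level in Early-Mid FCs-like cells, split by UMIs per cell (left) and by mitochondrial share (right). Points are the ratios of UMI sums and bars are exact 95% binomial intervals. *Ets21C* lies between 1.69 and 2.31 in the 6 ranges, while *kay* goes from 0.15 under 4% mitochondrial to 0.63 at 8% and over.

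*Ets21C* had the widest difference between the ages of the 8 genes in all cells and in both large follicle classes. Early-Mid FCs-like cells held 548 UMIs at 1 week and 2805 at 6 weeks, or 6.537 CPM (6.00 to 7.11) and 25.9 CPM (24.97 to 26.9), a log2 ratio of 1.99 (1.85 to 2.12). In FSCs + pFCs-like cells it was at 13.9 CPM (11.3 to 16.8) and 35.8 CPM (32.2 to 39.8), a log2 ratio of 1.37 (1.05 to 1.70). These ratios were at percentiles 99.8 and 99.6 of the genes tested in each class. The difference was spread over clusters. *Ets21C* was higher at 6 weeks in 25 of 25 clusters with at least 30 UMIs, with a median log2 ratio of 1.76 and a range of 0.33 to 4.90, and the interval lay above 0 in 23. Of the clusters with fewer UMIs, cluster 26 was lower at 6 weeks, from 16 UMIs at 1 week and 3 at 6 weeks.

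Among the 8 Early-Mid FCs-like clusters the log2 ratio of *Ets21C* ran from 1.40 to 2.77. Its highest value was in cluster 12, led by *CG33939* and *dpp* and carrying *slbo*, a regulator of border cells, where *Ets21C* was at 4.96 and 33.8 CPM. Cluster 3, which carried the steroid synthesis genes *spo*, *sad* and *dib*, held 2.67 and 15.8 CPM. The difference was therefore present in dividing, mid-stage and border-type clusters alike, at levels that stayed under 50 CPM.

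In single cells *Ets21C* was sparse. At 1 week 8.75% of the Early-Mid FCs-like cells held a UMI of it and at 6 weeks 28.8%, and cells with 3 or more UMIs made up 0.447% and 5.46%. Median depth also differed, at 14113 and 18062.5 UMIs per cell. With each cell thinned to 2000 UMIs and shallower cells left out, 47 at 1 week and 104 at 6 weeks, the shares were 1.197% (0.917% to 1.54%) and 4.84% (4.28% to 5.45%). Late FCs-like cells, the class with the lowest level, gave 1 of 125 cells (0.800%, 0.0203% to 4.38%) and 1 of 82 (1.22%, 0.0309% to 6.61%) after thinning. Each Early-Mid FCs-like share lay inside the Late FCs-like interval of its own age, so the thinned shares could not set the classes apart. The UMI sums did, as Late FCs-like cells held 0.192 CPM (0.00485 to 1.07) and 5.70 CPM (3.82 to 8.19), from 1 and 29 UMIs. Unthinned, 0.794% and 23.2% of the Late FCs-like cells held a UMI of it, at median depths of 45650.5 and 68067.5 UMIs. What free RNA gave to these values was not tested. The difference between the 2 ages within the Early-Mid FCs-like class was larger than the counting error.

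Escort-like cells, the somatic cells that wrap germ cell cysts in the germarium, had the largest ratio of *Ets21C* among the classes with at least 10 UMIs at each age. It was at 13.1 CPM (6.29 to 24.1) at 1 week, from 10 UMIs, and at 114 CPM (88.8 to 143) at 6 weeks, from 71 UMIs, a log2 ratio of 3.12 (2.15 to 4.24). *Mmp1* in the same cells was at 49.8 CPM (35.3 to 68.4) and 277 CPM (237 to 321), from 38 and 173 UMIs, a log2 ratio of 2.47 (1.96 to 3.02). Both targets were therefore several times higher in the Escort-like sums of the 6-week library, though not evenly over its cells. The 10 cells with the most UMIs held 62.0% of the 6-week UMIs of *Ets21C* and 51.4% of those of *Mmp1*, so these sums rested on few cells. The larger of the 2 Escort-like clusters at 6 weeks, led by *AstC-R2* and *Lmx1a*, held 0 UMIs of *Ets21C* at 1 week and 4 at 6 weeks. The other, cluster 24, led by *NimA* and *CG2233*, held 10 and 67. *Mmp1* had 11 and 33 UMIs in the larger cluster and 27 and 140 in cluster 24. At 6 weeks the larger cluster had 104 cells and cluster 24 had 47, so most of both sums came from the smaller part of the class.

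A like pair of values came from cluster 18, unnamed because it carried no escort marker among its leading genes, though all 5 escort markers were raised in it. Its leading genes were *CG32204*, *scro* and *wrapper*, and it held 160 cells at 1 week and 185 at 6 weeks. *Ets21C* there was at 41.6 and 298 CPM, a log2 ratio of 2.84 (2.27 to 3.46), and *Mmp1* at 135 and 457 CPM, a log2 ratio of 1.75 (1.42 to 2.10). The kinases *hep* and *bsk* had ratios of -0.24 and 0.28 in the same cells.

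The remaining classes held few *Ets21C* UMIs. Muscle-like cells had 10 and 51, a log2 ratio of 1.53 (0.54 to 2.68), and Immune-like cells 17 and 37, a log2 ratio of 1.63 (0.76 to 2.55). Late FCs-like cells had 1 and 29, with a counting interval of the log2 ratio from 2.30 to 10.25. Gut or tubule-like cells had 198 and 206, or 61.3 and 111 CPM, a log2 ratio of 0.85 (0.56 to 1.14). The highest 1-week level was in cluster 11, the cells with midgut markers, at 148 CPM, and it was also the highest at 6 weeks, at 347 CPM.

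*Mmp1* differed widely between classes. At 1 week it was at 325 CPM (306 to 346) in Gut or tubule-like cells, 56.5 CPM (51.2 to 62.2) in FSCs + pFCs-like cells, 13.7 CPM (12.9 to 14.5) in Early-Mid FCs-like cells and 0.766 CPM (0.209 to 1.96) in Late FCs-like cells. At 6 weeks these were at 271 CPM (248 to 296), 83.8 CPM (78.2 to 89.7), 27.0 CPM (26.0 to 28.0) and 0.590 CPM (0.122 to 1.72). The log2 ratios were -0.26 (-0.42 to -0.11), 0.57 (0.40 to 0.74) and 0.98 (0.88 to 1.08) in the first 3 of them. *Mmp1* was thus lower at 6 weeks in the Gut or tubule-like cells and higher in the FSCs + pFCs-like and Early-Mid FCs-like sums, while the 4 and 3 UMIs of the Late FCs-like cells gave no direction. The lower value did not extend to cluster 11, the unnamed cells with midgut markers. That cluster held 1110 *Mmp1* UMIs in 307 cells at 1 week and 1240 in 139 cells at 6 weeks, at median depths of 16608 and 24501 UMIs. Over 28 clusters with at least 30 UMIs, *Mmp1* was higher at 6 weeks in 23. Of the 4 FSCs + pFCs-like clusters, 3 were higher at 6 weeks, and cluster 15 was at -0.18 (-0.77 to 0.43) on the log2 scale.

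Within the Early-Mid FCs-like class *Mmp1* was highest in 1 cluster. That cluster, number 6, led by *CG7059* and *bdl* and carrying *cas* and *eya*, genes of early follicle cells, was at 54.7 and 128 CPM, a log2 ratio of 1.23 (1.08 to 1.38), while cluster 3 was at 2.95 and 4.47 CPM. Outside this class, in cluster 16, an FSCs + pFCs-like cluster that carried *upd1* and other polar cell genes, *Mmp1* was at 63.9 and 155 CPM. Its log2 ratio there was 1.28 (0.98 to 1.58). Cluster 16 held 143 of the 420 *Mmp1* UMIs of the FSCs + pFCs-like cells at 1 week and 283 of 832 at 6 weeks. All 8 Early-Mid FCs-like clusters were higher at 6 weeks, by 0.60 to 1.23 on the log2 scale. After thinning to 2000 UMIs, 2.73% of the Early-Mid FCs-like cells held a UMI of *Mmp1* at 1 week and 5.17% at 6 weeks. Late FCs-like cells gave 0 of 125 and 0 of 82, with intervals that reached 2.91% and 4.40%. The 1-week share of the Early-Mid FCs-like cells lay inside that limit and their 6-week share above it. Unthinned, the Early-Mid FCs-like shares were 14.8% and 24.4%, and the Late FCs-like shares 3.17% and 3.66% at median depths of 45650.5 and 68067.5 UMIs.

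The genes past a log2 ratio of 0.5 differed from class to class. In Early-Mid FCs-like cells 3 of 8 were past it upward, *Jra*, *Ets21C* and *Mmp1*, beside 5.59% of the genes tested, and 0 of 8 downward, beside 5.44%. In FSCs + pFCs-like cells 2 of 8 were, *Ets21C* and *Mmp1*, beside 4.23%, and 0 downward, beside 5.60%. *Mmp1* fell short of 0.5 there with the mean of single-cell CPM, at 0.33, and with both libraries clustered together, at 0.49. In Escort-like cells the same 2 genes were past it, of 7 with enough UMIs, beside 13.0%, and 0 downward, beside 9.50%.

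In Muscle-like cells 4 of 8 were past it, *egr*, *kay*, *puc* and *Ets21C*, beside 14.9%, and 0 downward, beside 8.04%. In Germ cells-like cells 4 of 7 were, *hep*, *bsk*, *kay* and *puc*, beside 13.1%, and 0 downward, beside 21.2%. These 4 sums rested on few cells. At 6 weeks the 10 cells with the most held 79.96% of the UMIs of *hep*, 75.3% of *bsk*, 70.8% of *puc* and 61.3% of *kay*. After thinning, the share of cells with a UMI was lower at 6 weeks for *hep* and higher for *bsk*, *puc* and *kay*. Late FCs-like cells had *Jra*, *kay* and *Ets21C* past 0.5 upward, beside 17.2%, and *egr* downward, beside 10.7%. Immune-like cells had *Jra*, *Ets21C* and *Mmp1*, beside 23.5%, and 0 downward, beside 18.7%, from 18 cells at 6 weeks. Gut or tubule-like cells had *Ets21C* alone, beside 7.03%, and 0 downward, beside 12.0%. *Ets21C* passed 0.5 in each of the 7 classes in which it had at least 30 UMIs.

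**Figure D4:**
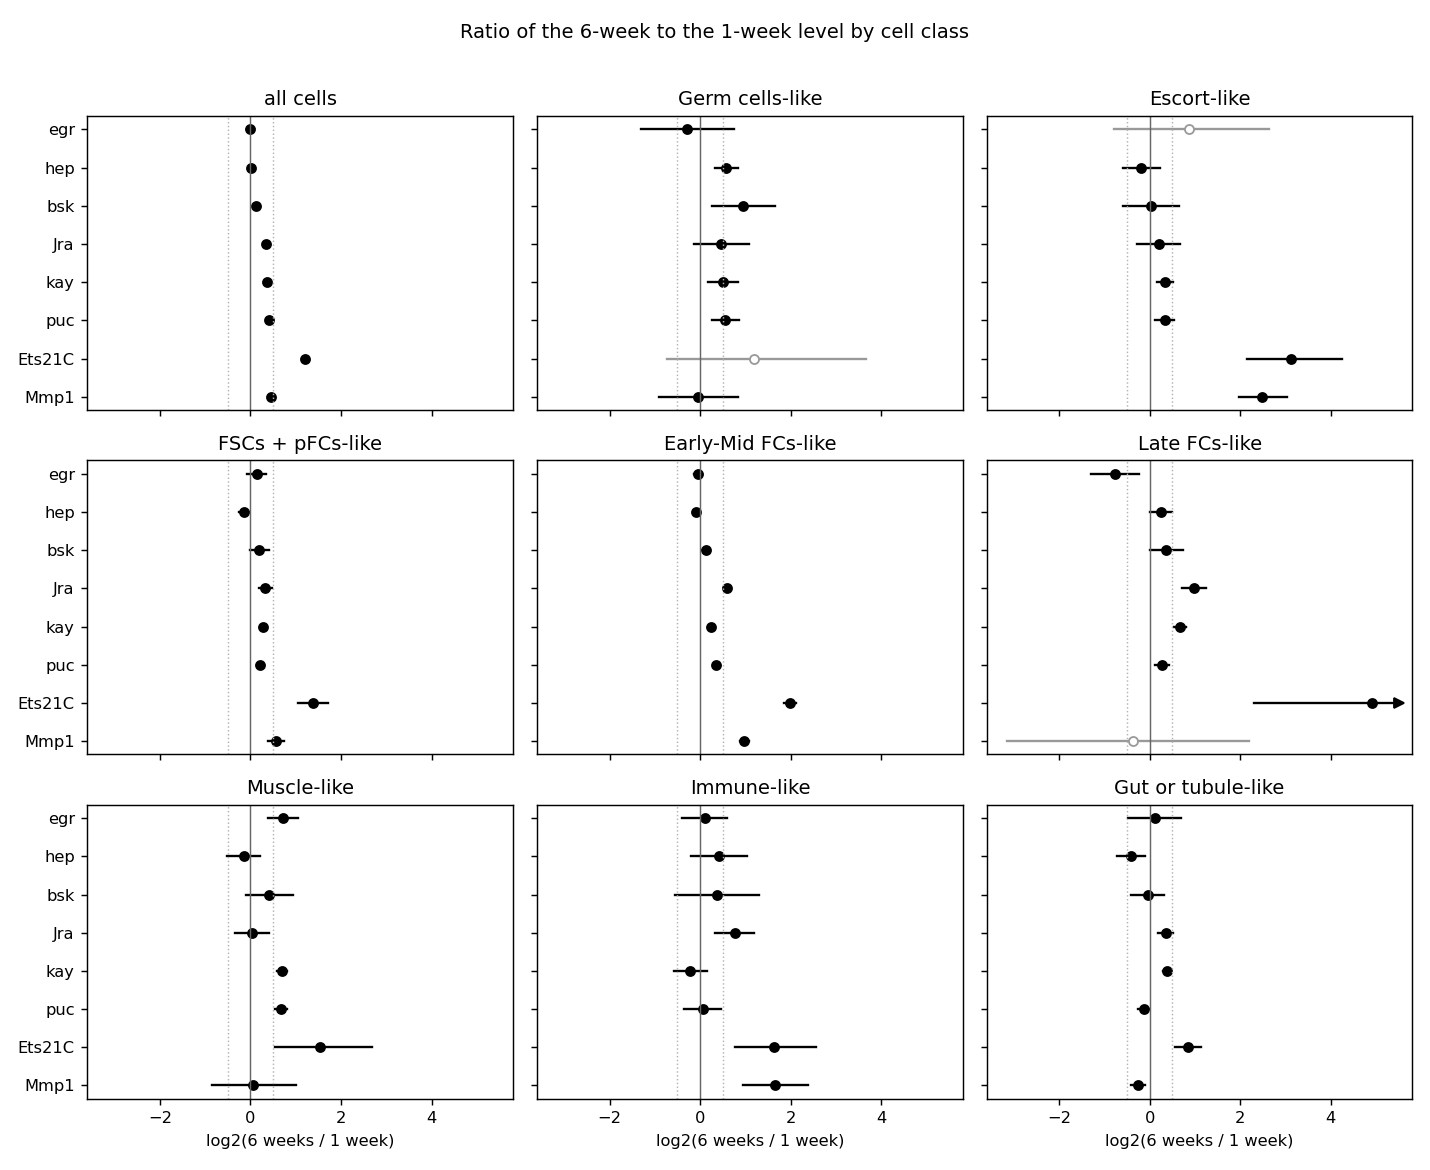
Log2 ratio of the 6-week to the 1-week level of each gene, in all cells and in each class, with exact 95% binomial intervals. Dotted lines mark 0.5 either way, open gray points have under 30 UMIs over both libraries, and an arrow marks an interval that runs past the axis. *Ets21C* lies right of the upper dotted line in every panel where it had at least 30 UMIs, with 1.99 in Early-Mid FCs-like cells.

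Most other genes of the pathway lay within 0.5 of equal levels in all cells, as did most of all genes tested there. Of all genes tested in all cells, 6.52% were past 0.5 upward and 11.5% downward. These shares stand beside each count of the gene lists below. Of 19 upstream genes, among them the Eiger receptors *grnd* and *wgn* and the kinases *Tak1*, *msn* and *slpr*, 1 was past 0.5 in all cells, the tyrosine kinase *Src42A* at 0.51 (0.47 to 0.55), and 0 were lower by that much. Their median log2 ratio was 0.10, beside -0.01 over all genes tested. Of 5 genes that restrain the pathway, 4 had at least 30 UMIs and 0 of these passed 0.5, with a median of 0.05. Of 15 further genes that JNK is known to induce in some tissue, 3 were higher by 0.5, 1 was lower, and the median was 0.22.

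By name, the highest of these lists were *Ilp8*, a relaxin-like hormone, at 35.9 and 136 CPM, *scaf*, a serine protease homolog, at 3.80 and 5.86 CPM, and *rpr*, an inducer of cell death, at 60.4 and 86.5 CPM. Their log2 ratios were 1.92, 0.63 and 0.52. *Ilp8* was a gene of cluster 20, which held 57.4% of its UMIs at 1 week and 86.3% at 6 weeks, and outside that cluster its log2 ratio was 0.30 (0.22 to 0.39). The lowest of them were *upd1*, a ligand of the JAK/STAT pathway made by polar cells, at -0.87, and *Gadd45* at -0.29. FSCs + pFCs-like cells held 1518 of the 1601 *upd1* UMIs at 1 week and 937 of 1091 at 6 weeks. Cluster 16 of that class, with *upd1* among its leading genes, had 183 cells at 1 week and 126 at 6 weeks. Of 7 p38 and ERK kinase genes 1, *p38c* at -1.09, was past 0.5, with a median of -0.02 over the 7. Early-Mid FCs-like cells held 20 of the 896 *p38c* UMIs at 1 week and 13 of 523 at 6 weeks, and FSCs + pFCs-like cells 2 and 3. The part of the cell numbers per cluster in the *upd1* and *p38c* ratios was not tested. Of the 14 heat shock genes with at least 30 UMIs, 0 were higher by 0.5 and 1, *Hsp70Ab* at -0.54, was lower, and the summed level of the list was 12171 CPM at 1 week and 11512 CPM at 6 weeks. Of the 2 activity-induced genes *Hr38* and *sr*, 0 were past 0.5, at -0.09 and 0.08.

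Several members were found in the same cells more often than the product of their shares gave. In Early-Mid FCs-like cells thinned to 2000 UMIs, 133 cells at 6 weeks held both *puc* and *Ets21C* where the product gave 98.5, and at 1 week 37 did where it gave 19.1. *Ets21C* and *Mmp1* met in 24 cells at 6 weeks, where the product gave 13.5, and *Jra* and *Ets21C* in 52, where it gave 33.6. *kay* and *puc* were found together in 1052 cells at 6 weeks, where the product gave 930.1. *hep* and *Ets21C*, by contrast, met in 39 cells at 6 weeks where the product gave 48.2, though at 1 week in 12 where it gave 12.1. In FSCs + pFCs-like cells thinned alike, this pair met in 6 cells at 1 week, where the product gave 8.09. At 6 weeks it met there in 24, where the product gave 20.4. These counts describe cells of 1 library that differ in cluster and state.

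Levels were also compared over 23 clusters with at least 50 cells at both ages, which gives 46 points that share the 2 libraries and their depths, and these correlations are a description. Among the members, log2 levels of *kay* and *puc* had the highest Pearson r, 0.88, followed by *Jra* and *puc* at 0.77, *puc* and *Ets21C* at 0.75, and *Ets21C* and *Mmp1* at 0.70. *egr* had an r between -0.18 and 0.27 with each other member, and *hep* reached 0.45 at most, with *puc*. Outside the members, the genes closest to *Jra* were *sqh*, *Wbp2* and *pst* (r of 0.91, 0.90 and 0.89), and those closest to *puc* were *mys*, *RhoGAP92B* and *Vinc* (0.91, 0.89 and 0.88). The genes closest to *kay* were *sog*, *Xrp1* and *cnc* (0.88, 0.88 and 0.85). *Ets21C* was closest to *shot*, *SCaMC* and *WASp* (0.80, 0.77 and 0.75), and *Mmp1* to *AnxB9*, *Hip1* and *Cyp6a13* (0.86 each). *bsk* was closest to *PI31*, *Rabex-5* and *galla-1* (0.87, 0.85 and 0.82), *hep* to *CG30466*, *CG1998* and *Duba* (0.83 each), and *egr* to *CG4829*, *CG8563* and *Shaw* (0.72, 0.70 and 0.68).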

How the data were processed

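Single-cell RNA sequencing of whole ovaries gave 1 library at 1 week and 1 at 6 weeks. The authors aligned reads with Cell Ranger 9.0.0 (build BDGP6, in the submitters' processing notes) and deposited UMI counts as whole numbers for each gene and barcode, before their own filter on cells. No barcode held under 500 UMIs, and the libraries totalled 147628511 and 162985928 UMIs. Counts were used as deposited, with Python 3.11.15, scanpy 1.11.5 and scipy 1.17.1.

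Kept cells were scaled, and the 2000 most variable genes, without mitochondrial genes, the 8 members and the genes of the study's tables of differences, were reduced to 30 principal components. Leiden clustering of the 1-week cells was done at resolution 1 over 20 neighbors, and 6-week cells were placed by their 30 nearest 1-week cells, with 66.7% of them having over 80% of these in the chosen cluster. A class name needed at least 3 markers raised 2-fold in at least 10% of the cells, 1 of them among the 10 leading genes. Early-Mid FCs-like clusters needed at least 3 markers detected in 25% of cells, no more than 10 genes raised 8-fold, and a depth of at least the library median divided by 3. Names were rebuilt here and can differ from those of the study. Doublets were left in.

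UMIs were summed per library and class. With 1 library per age no p-value was computed, so no difference was tested between ages. Named genes were the 8 members everywhere, the 3 genes most like each by Pearson r of log2(CPM + 1) among genes with at least 200 UMIs, and the 3 highest and 3 lowest ratios of the other pathway lists. Clusters and genes outside this rule were named after their values were seen. The members, marker lists and gene lists were chosen with earlier results of these data known. The calculation of ratios and intervals was tested on simulated data.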

Additional observations from a re-analysis of the deposited data

Results flagged for a closer look

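The level of *egr* differed in opposite directions between 2 classes. Its log2 ratio of 6 weeks to 1 week was 0.72 (0.38 to 1.06) in Muscle-like cells and -0.76 (-1.29 to -0.23) in Late FCs-like cells, with 1 library per age in both. The difference between the classes was not tested.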

How the results depend on the processing

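In Early-Mid FCs-like cells 3 members were past 0.5 under each of the 15 alternatives run. In all cells, where 1 was, 5 were with the limits of the Seurat tutorial (200 to 2500 genes and under 5% mitochondrial), 2 with the mean of single-cell CPM, 2 with cells thinned to 2000 UMIs, and, in alternatives chosen after seeing the data, 4 without the clusters with gut or tubule markers and 2 with the cluster shares of the 1-week UMIs at both ages. In FSCs + pFCs-like cells, where 2 were, 4 were with a mitochondrial share up to 10%, 7 with the tutorial limits, from 49 cells at 1 week and 364 at 6 weeks, 1 with both libraries clustered together and 1 with the mean of single-cell CPM. The log2 ratio of *Ets21C* stayed past 0.5 throughout, from 1.18 to 2.13 in all cells, 1.56 to 2.04 in Early-Mid FCs-like cells and 1.17 to 2.37 in FSCs + pFCs-like cells. *Mmp1* in FSCs + pFCs-like cells ran from 0.33 to 1.62. The cause of these shifts was not tested. Shares of all genes past 0.5 under the alternatives are not given here, so these counts cannot be set against a background. Leaving out the clusters over 10% mitochondrial at both ages, also chosen after seeing the data, left the 3 counts as they were. No paired analysis was possible because each age has 1 library. Without replicates, counting error is the only error these data give, and classes of under 100 cells limit what their ratios can show.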
